A study of Mus musculus with 12 samples.

Results

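The DNA methylation machinery of mouse thymus was followed through 9 genes: the methyltransferases Dnmt1, Dnmt3a and Dnmt3b, their partner Uhrf1, the oxidases Tet1, Tet2 and Tet3, and the methyl-CpG binding proteins Mbd1 and Mbd2. Every probe set whose only gene symbol in the platform's gene table was one of these names was taken, which left 26 of the 45037 probe sets that were not array controls. All 9 genes had at least 1 probe set, among 18193 genes named on the array. A probe set is a group of short probes read as 1 value.

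Whole thymus was taken from mice aged 7 to 8 weeks, and 12 arrays were hybridised, 3 biological replicates in each of 4 groups. The groups were XXsry males, XX females, XY-sry males and XY- females. XXsry males and XX females share an XX complement, while XY-sry males and XY- females share an X and a Y marked with a minus sign, which in this kind of cross stands for a Y without Sry. Both male groups carry Sry, so gonadal sex and the presence of Sry cannot be told apart. No source used here names the strain or the site of the added Sry. The deposited values were log2 values made by the authors with RMA.

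DNA methylation in mammals lies mostly on cytosines followed by guanine. Dnmt3a and Dnmt3b set new marks, and Dnmt1 copies existing marks to the daughter strand when DNA is replicated, guided there by Uhrf1, which recognises half-methylated sites. The Tet enzymes oxidise the methyl group as a first step towards its removal, and the Mbd proteins bind methylated DNA and bring repressor complexes to it. In thymus, where most cells are developing T cells and many divide, this machinery takes part in silencing lineage genes and transposons.

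Dnmt1 and Uhrf1 are both known as genes active around S phase, which E2F factors help to control, and their values moved together on these arrays as described further on. Their promoter windows in RefSeq (GRCm38.p6, 250 bases before to 50 after a transcript start) were searched for 4 forms of the E2F motif, TTTCGCGC, TTTGGCGC, TTTCCCGC and TTTGCCGC, on both strands. Sites are shown in 30 bases, 5′ to 3′ on the gene's strand, with the matched letters in capitals, because they are the sequences that these 2 members have and the other members searched do not.
Dnmt1, chr9:20952824-20952853, minus strand: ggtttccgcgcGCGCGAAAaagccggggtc
Dnmt1, chr9:20952574-20952603, minus strand: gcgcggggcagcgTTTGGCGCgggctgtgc
Uhrf1, chr17:56304117-56304146, plus strand: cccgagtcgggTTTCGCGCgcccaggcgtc
The first Dnmt1 match is a reverse-strand TTTCGCGC that ends 212 bases before a transcript start at 20952623, and the second begins at base 34 of that transcript, counting its start as 1. The Uhrf1 match ends 178 bases before a start at 56304313. Dnmt1 has 3 windows and Uhrf1 has 2, and in each gene only 1 window held a match. Of the 7 members with a promoter window 2 held a match, and none was found in the windows of Dnmt3a, Dnmt3b, Tet1, Tet2 and Tet3. Of all genes with a promoter window, 704 of 27025, or 2.61%, held one of these motifs. Counted by window these were 2 of 12 for the members and 744 of 32851, or 2.26%, for all genes. All 4 motifs contain the letters CG, and these shares were not matched for CG content. The 2 member windows with a match held CG 33 times each, and those without held it from 2 (Dnmt1) to 57 times (Tet2). Among 12 genes with a window in a list of S phase and dividing-cell genes (used below), 5 held a match. A match is a description of letters, and no factor binding was measured here. Mbd1 and Mbd2 were not searched.

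Dnmt1, which has 3 probe sets, was higher in males. Its probe set 1422946_a_at read 9.41, 9.48 and 9.39 in XXsry males, against 9.26, 9.34 and 9.15 in XX females. It read 9.41, 9.53 and 9.59 in XY-sry males, against 9.25, 9.29 and 9.14 in XY- females. All 6 male arrays lay above all 6 female arrays, as for 2.28% of the 17925 probe sets tested. The male minus female log2 difference, averaged over complement, was 0.23 ± 0.048 (standard error, 6 arrays a side), a fold of 1.17 (limma adjusted p = 0.0195). Within XY- the log2 difference was 0.28 ± 0.068 (limma adjusted p = 0.0267, 3 arrays a side). Within XX it was 0.18 ± 0.068 and did not pass (limma adjusted p = 0.322), although the 3 XXsry arrays lay above the 3 XX arrays, as for 10.8% of probe sets tested. The difference between the 2 sex effects, the interaction, did not pass either, at 0.11 with a 95% interval of -0.103 to 0.317 (limma adjusted p = 0.695). By group mean the order was XY-sry males at 9.51 ± 0.092, XXsry males at 9.43 ± 0.047, XX females at 9.25 ± 0.095 and XY- females at 9.23 ± 0.078 (SD, n = 3 each). Neighbours within a sex did not differ beyond their spread.

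The other Dnmt1 probe sets pointed the same way but missed the threshold. Both carry the suffix _x_at, by which the array's maker marks probes that other sequences may share. Probe set 1435122_x_at gave 0.18 ± 0.054 averaged over complement (limma adjusted p = 0.073) and 0.27 ± 0.077 within XY- (limma adjusted p = 0.0525). For 1447877_x_at the averaged difference was 0.15 ± 0.057 (limma adjusted p = 0.134) and that within XY- 0.24 ± 0.080 (limma adjusted p = 0.085). In both, the 3 XY-sry arrays lay above the 3 XY- arrays, as for 18% of all probe sets tested, while XXsry and XX arrays overlapped. Without the filter on low values (a mean log2 value of at least 5) neither Dnmt1 call held (limma adjusted p = 0.0522 averaged and 0.0664 within XY-). The Dnmt1 call within XY- did not hold without XY-sry replicate 2 or 3 or without XY- replicate 1 or 3 (adjusted p = 0.0622, 0.103, 0.0529 and 0.0703), and the averaged call not without XXsry replicate 2 or XY-sry replicate 3 (limma adjusted p = 0.0508 and 0.0509).

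Uhrf1, the reader of half-methylated DNA that brings Dnmt1 to replicated sites, followed Dnmt1 without passing the threshold. Probe set 1415810_at read 9.67, 9.73 and 9.64 in XXsry males, against 9.49, 9.68 and 9.44 in XX females, and these groups overlapped. It read 9.72, 9.75 and 9.88 in XY-sry males, against 9.64, 9.60 and 9.32 in XY- females, without overlap, as for 18% of probe sets tested. By 1415811_at the XXsry arrays read 7.82, 7.75 and 7.70, above the XX arrays at 7.61, 7.69 and 7.59, as for 10.8% of probe sets. Its XY-sry arrays, at 7.71, 7.88 and 7.99, overlapped the XY- arrays, at 7.66, 7.71 and 7.42. The averaged male minus female difference was 0.20 ± 0.063 by 1415810_at and 0.20 ± 0.061 by 1415811_at (limma adjusted p = 0.076 and 0.0766). Within XY- both gave 0.26 (limma adjusted p = 0.09 and 0.079), and within XX they gave 0.14 and 0.13 (limma adjusted p = 0.56 and 0.6). Without XY- replicate 2, an array described below, 1415811_at passed in the averaged comparison (0.22 ± 0.061, limma adjusted p = 0.0423). There 1415810_at did not pass (0.22 ± 0.066, limma adjusted p = 0.0572). Without XY- replicate 3 the averaged differences of 1415810_at and 1415811_at fell to 0.153 and 0.151 (limma adjusted p = 0.107 and 0.116). Those within XY- fell to 0.163 and 0.175 (limma adjusted p = 0.223 and 0.200).

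Dnmt3b, a de novo methyltransferase, was higher in XY-sry than in XY- thymus. Probe set 1449052_a_at read 6.09, 6.27 and 6.16 in XY-sry males, against 5.71, 5.51 and 5.83 in XY- females. These did not overlap, as for 18% of probe sets tested. Within XY- the log2 difference was 0.49 ± 0.137, a fold of 1.40 (limma adjusted p = 0.048, 3 arrays a side). In the XX groups it read 5.99, 6.12 and 6.20 in XXsry males, against 6.27, 6.09 and 5.64 in XX females, so the females covered the whole male range. There the difference was 0.10 ± 0.137 (limma adjusted p = 0.81), the average over complement was 0.30 ± 0.097 (limma adjusted p = 0.088), and the interaction was 0.39 with an interval of -0.0378 to 0.811 (limma adjusted p = 0.423). By group mean the order was XY-sry males at 6.17 ± 0.091, XXsry males at 6.10 ± 0.106, XX females at 6.0 ± 0.324 and XY- females at 5.68 ± 0.162 (SD, n = 3 each), and the arrays of neighbours in this order overlapped. The call rests close to the threshold: it was lost without any 1 XY-sry array (limma adjusted p = 0.0889, 0.112 and 0.12) and without XY- replicate 1 or 2 (0.0868 and 0.117). It was also lost without XX replicate 2 (0.0619) or without any 1 XXsry array (0.0575, 0.0648 and 0.0648), which enter only through the shared estimate of the spread. The second Dnmt3b probe set, 1418351_a_at, averaged 4.54 over all arrays, under the filter on low values (a mean log2 value of at least 5), and differed by 0.11 within XY- in the fit without that filter (limma adjusted p = 0.758).

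Dnmt3a, the other de novo methyltransferase, had 5 probe sets, of which 4 passed the filter. Probe set 1423063_at read 7.37, 7.12 and 7.18 in XXsry males and 7.21, 7.08 and 7.15 in XX females, which overlapped. It read 7.30, 7.20 and 7.26 in XY-sry males and 7.19, 7.05 and 7.09 in XY- females. The XY-sry arrays lay just above the XY- arrays, as for 18% of probe sets tested. Its averaged male minus female difference was 0.11 ± 0.050 (limma adjusted p = 0.197). The other 3 tested gave 0.085, 0.0067 and 0.070 (limma adjusted p = 0.338, 0.957 and 0.373). The 95% intervals of these 4 averaged differences lay between -0.108 and 0.219. Probe set 1423065_at, at a mean of 4.87, was not tested.

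**Figure D1:**
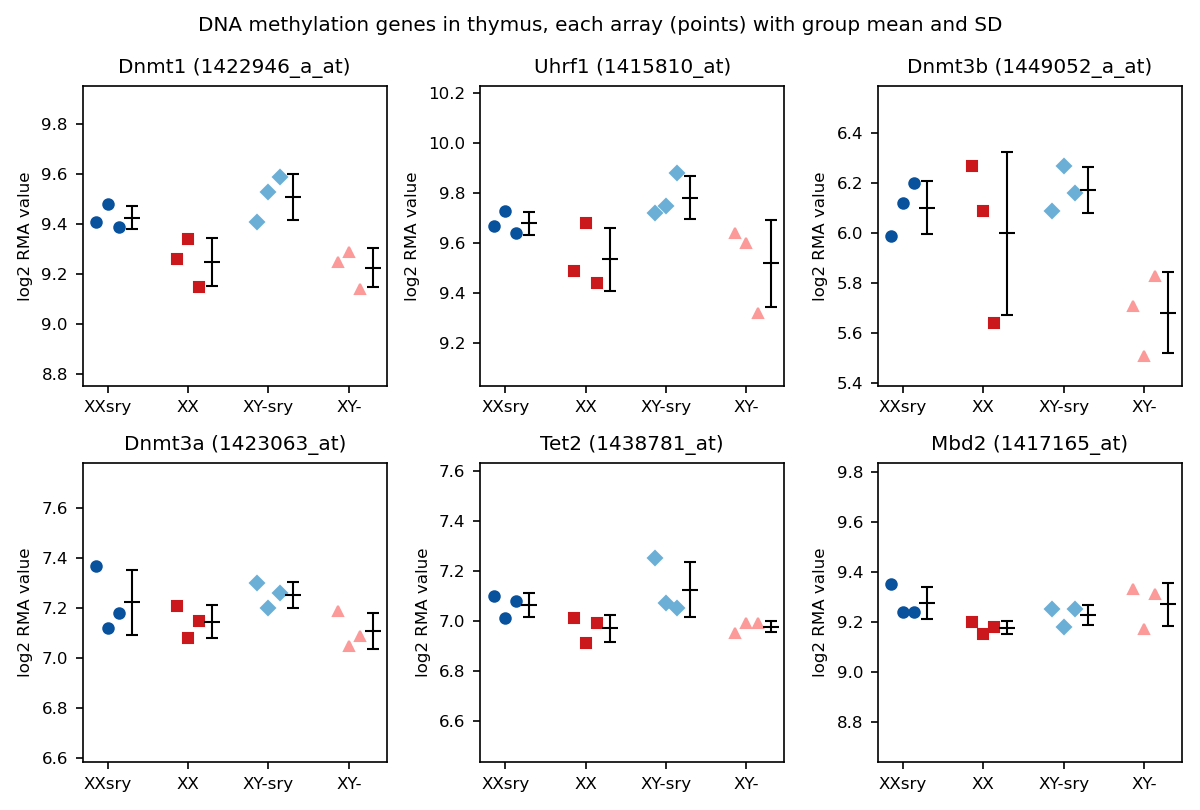
Log2 RMA values (vertical axis) of 6 member probe sets on each of 12 arrays, by group from left to right XXsry, XX, XY-sry and XY-; points are arrays, bars the group mean ± SD (n = 3), and every panel spans the same log2 range. All 6 male arrays lie above all 6 female arrays for Dnmt1, and for Dnmt3b the XY- females lie below XY-sry males while the XX females spread from 5.64 to 6.27.

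Among the erasers, Tet2, the family member known for its role in blood cells, had 2 tested probe sets. Probe set 1438781_at read 7.10, 7.01 and 7.08 in XXsry males and 7.01, 6.91 and 6.99 in XX females. In XY-sry males it read 7.25, 7.07 and 7.05, against 6.95, 6.99 and 6.99 in XY- females. These did not overlap, as for 18% of probe sets tested. The averaged male minus female difference was 0.12 ± 0.043 (limma adjusted p = 0.113), with a 95% interval of 0.026 to 0.214. The other Tet2 probe set, 1455300_at, gave 0.043 ± 0.057 (limma adjusted p = 0.69). With array weights both Tet2 probe sets passed within XY- (limma adjusted p = 0.0207 and 0.0137), but 4245 probe sets in all passed under that setting.

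Tet1, best known from stem and germ cells, had 1 tested probe set of 4. Probe set 1455425_at read 6.36, 6.41 and 6.33 in XXsry males, below the 6.58, 6.45 and 6.55 of XX females, as for 10.6% of probe sets tested. It read 6.61, 6.24 and 6.29 in XY-sry males and 6.42, 5.96 and 6.49 in XY- females, which overlapped. Its differences were -0.16 ± 0.128 within XX and 0.09 ± 0.128 within XY- (limma adjusted p = 0.664 and 0.699). A Tet1 probe set below the filter, 1429448_s_at, stood out: it read 3.25, 3.44 and 3.03 in XY-sry males, against 3.87, 3.98 and 3.50 in XY- females. In the fit without the filter this was -0.54 ± 0.122 (limma adjusted p = 0.0333). The maker's suffix _s_at marks probes that may be shared by several transcripts, and the Tet1 probe sets disagree in direction here, so no direction is given for the gene. The remaining Tet1 probe sets averaged 4.00 and 3.04. Tet3 was represented by 1 probe set, 1439324_at, which read between 3.27 and 3.63 on all arrays and was not tested. In the fit without the filter its averaged difference was 0.0067 (limma adjusted p = 0.982), at a signal too low to say whether Tet3 differed.

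The readers did not pass in any comparison. Mbd2, which links methylated DNA to the NuRD complex, read 9.35, 9.24 and 9.24 in XXsry males, above the 9.20, 9.15 and 9.18 of XX females by 1417165_at. XXsry arrays lay above XX arrays in this way for 10.8% of probe sets tested. In the XY- pair the values were 9.25, 9.18 and 9.25 in XY-sry males and 9.33, 9.17 and 9.31 in XY- females, which overlapped. The averaged male minus female difference was 0.028 ± 0.040, and 0.037 ± 0.041 by 1425803_a_at (limma adjusted p = 0.715 and 0.628). Mbd1, a reader that also has CXXC zinc fingers, had 2 tested probe sets of 5. By 1417968_a_at the average difference was 0.022 ± 0.038 and by 1437061_at 0.020 ± 0.060 (limma adjusted p = 0.771 and 0.877). For the 4 tested reader probe sets the 95% intervals of this difference lay between -0.112 and 0.152. Mbd1 1417968_a_at had the smallest adjusted p of the members for the interaction, 0.287: the sex effect was 0.12 ± 0.053 within XY- and -0.07 ± 0.053 within XX, and the interaction 0.19 with an interval of 0.0259 to 0.354.

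Of the 26 member probe sets 17, for 8 genes, had a mean log2 value of at least 5 and were tested, and Tet3 had none. For the averaged sex effect 1 of 17 passed (Dnmt1), while 6.56% of all probe sets did. Within XY- 2 of 17 passed (Dnmt1 and Dnmt3b), while 8.64% did, and within XX 0 of 17 passed while 0.742% did. With limma's unadjusted p under 0.05 there were 8, 9 and 1 of 17 in these comparisons, against 24.9%, 26.1% and 12.1% of all probe sets. The adjusted counts thus lay near the share over the array, while the unadjusted counts for the averaged effect and within XY- were above it. Several of these probe sets measure the same gene, so they are not separate observations. The median male minus female log2 difference of the 17 was 0.085, against 0.017 over all probe sets tested. Within XY- it was 0.15 against 0.043, and within XX 0.070, with that over all probe sets at zero.

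**Figure D2:**
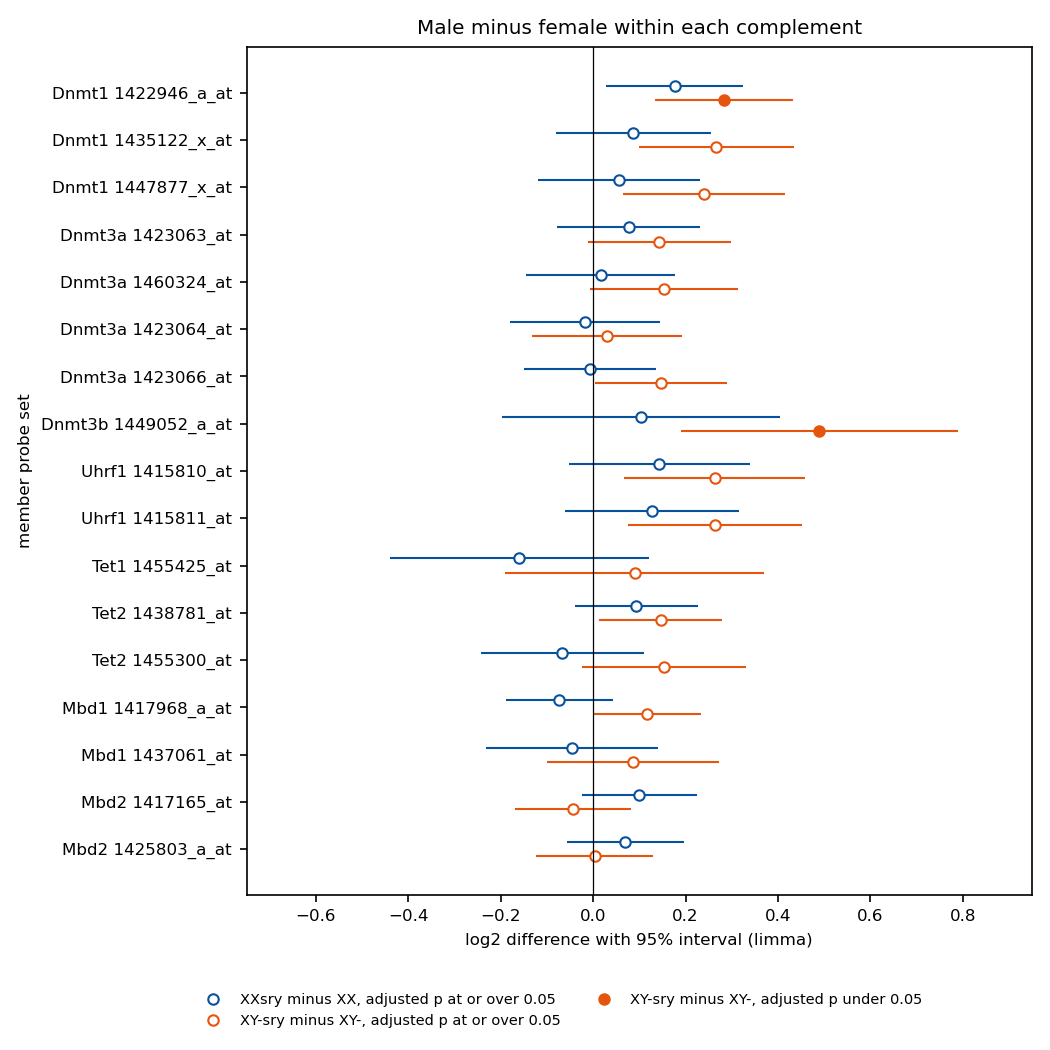
Log2 difference (horizontal axis) with its 95% interval for each of the 17 tested member probe sets (vertical axis), XXsry minus XX in blue and XY-sry minus XY- in orange; filled points passed an adjusted p under 0.05 in limma. The 2 filled points are Dnmt1 1422946_a_at at 0.28 and Dnmt3b 1449052_a_at at 0.49, both within XY-, and all blue points are open.

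The sex chromosome complement made no difference that passed. Averaged over gonadal sex, XX minus XY- was -0.03 ± 0.048 for Dnmt1 1422946_a_at, with means of 9.34 in the XX complement and 9.37 in the XY- complement. It was -0.043 ± 0.063 for Uhrf1 1415810_at and 0.12 ± 0.097 for Dnmt3b 1449052_a_at. In this comparison 0 of 17 member probe sets passed in limma, with 0 at unadjusted p under 0.05, while 0.0893% and 4.25% of all probe sets did. The 95% interval of every tested member lay within 0.336 of zero on the log2 scale. In males (XXsry minus XY-sry) 0 of 17 passed and 1 had an unadjusted p under 0.05 (Dnmt1 1447877_x_at, -0.19 ± 0.080, limma adjusted p = 0.514). Its XXsry arrays, at 7.69, 7.69 and 7.76, lay below the XY-sry arrays, at 7.79, 7.85 and 8.08, as for 7.43% of probe sets. In females (XX minus XY-) 0 of 17 passed and 1 had an unadjusted p under 0.05 (Dnmt3b 1449052_a_at, 0.32 ± 0.137, limma adjusted p = 0.446). The shares of all probe sets that passed were 0.128% in males and 0.0781% in females, and those with an unadjusted p under 0.05 were 8.55% and 10.6%. For the interaction 0 of 17 passed in limma, with 1 at unadjusted p under 0.05, against 1.29% and 13.4% of all probe sets. The intervals of the interaction reached 0.811 for Dnmt3b.

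**Figure D3:**
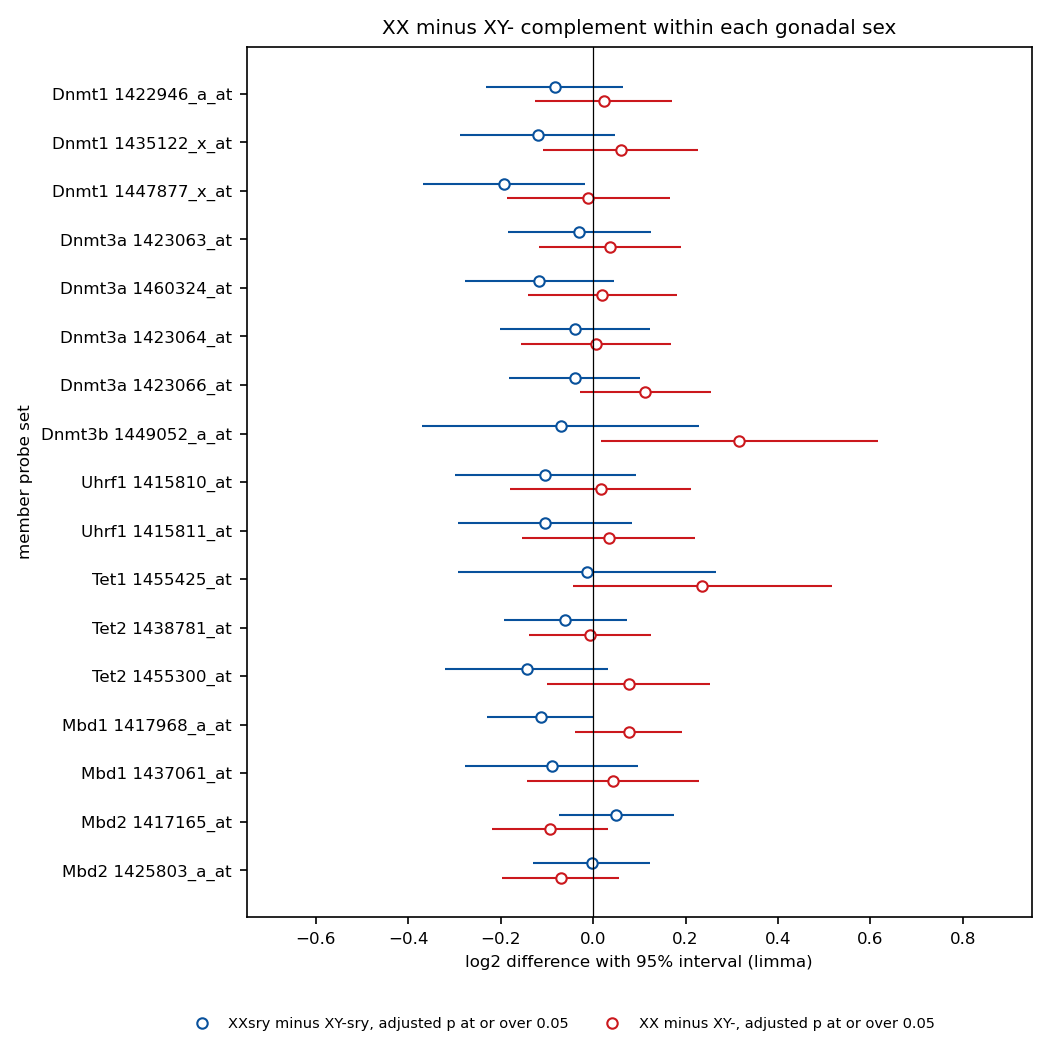
Log2 difference between complements (horizontal axis) with its 95% interval for the 17 tested member probe sets (vertical axis), XXsry minus XY-sry males in blue and XX minus XY- females in red. All points are open, since none passed an adjusted p under 0.05 in limma; the widest departures are Dnmt3b at 0.32 in females and Dnmt1 1447877_x_at at -0.19 in males.

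Over the 12 arrays Dnmt1 and Uhrf1 rose and fell together. Dnmt1 1422946_a_at and Uhrf1 1415810_at had a Pearson correlation of 0.926 and a Spearman correlation of 0.940 (permutation p = 2e-05 and 4e-05, adjusted p = 8e-05 and 0.00048 over the 12 relations computed), and r = 0.887 without the 2 arrays farthest from the Dnmt1 median. Within the 6 male arrays r was 0.924 (exact permutation p = 0.00556) and within the 6 female arrays 0.889 (exact permutation p = 0.0222). Without the 2 farthest arrays these were 0.756 and 0.580 over 4 arrays. The Spearman correlations within males and within females were 0.986 and 0.829 (exact permutation p = 0.00556 and 0.0583, adjusted p = 0.0167 and 0.1). With each group centred on its own mean, the Pearson correlation over the 12 arrays was 0.857. The permutations shuffled arrays across groups, also within a sex, so their p-values take in differences between groups that both genes share. Arrays share hybridisation and the same tissue piece for both genes, so the correlation is a description of samples.

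Genes of S phase and cell division ran in parallel. Of 14 tested genes in the list, Mcm6 and Mcm7, subunits of the replicative helicase, rose in males (0.20 ± 0.050 and 0.17 ± 0.038, limma adjusted p = 0.0388 and 0.0247). None fell and 12 did not pass, while 6.56% of all probe sets passed in this comparison. In a fit with 1 probe set per gene 829 of 9496 genes passed. The median male minus female difference of the 14 was 0.17, against 0.017 over all probe sets tested, and every one of the 14 was above zero, from 0.098 to 0.198. Within XX and within XY- 0 of these 14 genes passed in limma, while 0.742% and 8.64% of all probe sets did. Their mean log2 value ranged from 9.76 to 9.82 in XXsry males and from 9.59 to 9.72 in XX females. It ranged from 9.76 to 9.92 in XY-sry males and from 9.50 to 9.77 in XY- females. Dnmt1 and this mean had r = 0.945 over 12 arrays and a Spearman correlation of 0.914 (permutation p = 2e-05 and 0.00012, adjusted p = 8e-05 and 0.00072), and r = 0.928 without the 2 farthest arrays. In males r was 0.939 and in females 0.905 (exact permutation p = 0.0278 and 0.0306), and without the 2 farthest arrays these were 0.841 and 0.586 over 4 arrays. The Spearman correlations in males and in females were 0.812 and 0.886 (exact permutation p = 0.0722 and 0.0333, adjusted p = 0.108 and 0.08). Uhrf1 and the mean had r = 0.944 (permutation p = 2e-05). In males r was 0.903 and in females 0.879 (exact permutation p = 0.0583 and 0.0278). Without the 2 arrays farthest from the Uhrf1 median these were 0.712 and 0.693 over 4 arrays. By Spearman, Uhrf1 and the mean had 0.771 in males and 0.829 in females (exact permutation p = 0.103 and 0.0583, adjusted p = 0.137 and 0.1). Dnmt3b and the mean had r = 0.470 (permutation p = 0.134), with r = 0.400 within males and -0.025 within females (exact permutation p = 0.422 and 0.933). These permutations, too, shuffled arrays across groups, so their p-values take in shared differences between groups. The part of cell division in the Dnmt1 result was not tested. In whole thymus, fewer cells of a type and less RNA per cell cannot be told apart.

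**Figure D4:**
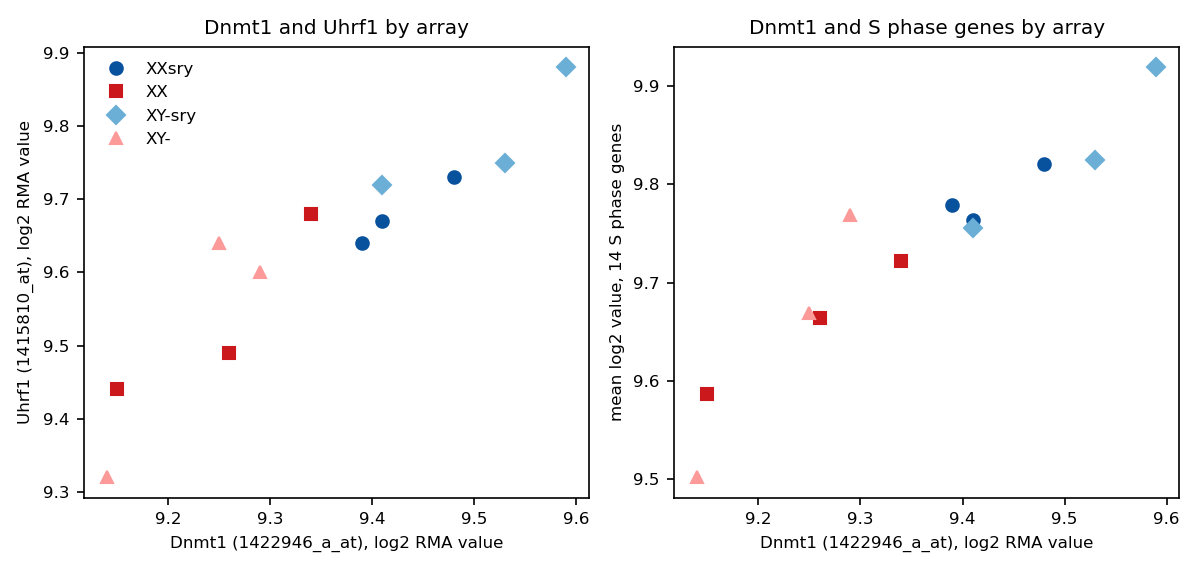
Uhrf1 1415810_at (left, vertical axis) and the mean of 14 S phase and division genes (right, vertical axis) against Dnmt1 1422946_a_at (horizontal axes), all as log2 RMA values; each point is 1 of 12 arrays, with a symbol for each group. Points run from XY- replicate 3 at the lower left to XY-sry replicate 3 at the upper right in both panels. Groups mix in between: on the right XY-sry replicate 1 (9.755) lies below XY- replicate 2 (9.769).

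By likeness over the 12 arrays, among 9488 other genes, those nearest to Dnmt1 were Hdgf, Ska1, a kinetochore gene, and Nt5dc2 (Pearson r = 0.972, 0.970 and 0.954). Nearest to Dnmt3b were Poglut2, Slc7a5, an amino acid transporter, and Dph6 (r = 0.955, 0.937 and 0.932). With each group centred on its own mean, these 6 correlations were 0.922, 0.873, 0.877, 0.918, 0.856 and 0.946. No gene is on both lists of nearest genes.

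Genes of 4 further pathway lists were read by 1 probe set each. As the background for their counts in the averaged sex effect, 6.56% of all probe sets passed, and 829 of 9496 genes passed in a fit with 1 probe set per gene. Among other writers and cofactors 1 of 8 tested genes rose in males and 0 fell: Cdca7, a partner of the chromatin remodeller Hells, read 9.92, 9.87 and 9.88 in XXsry males and 9.73, 9.83 and 9.68 in XX females. It read 9.83, 9.90 and 9.96 in XY-sry males and 9.72, 9.73 and 9.46 in XY- females. The averaged difference was 0.20 ± 0.053 (limma adjusted p = 0.0446), and male and female arrays touched at 9.83. Hells itself differed by 0.15 ± 0.081 and Uhrf2, the paralogue of Uhrf1, by -0.0067 ± 0.045 (limma adjusted p = 0.282 and 0.949). Of 6 other readers Mbd6 rose (0.18 ± 0.045, limma adjusted p = 0.0339) and 0 fell.

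Among genes of demethylation and base repair 1 of 8 rose and 1 fell in males. Apex1, the endonuclease of base excision repair, rose by 0.21 ± 0.047 averaged over complement and by 0.31 within XY- (limma adjusted p = 0.0251 and 0.0170). Gadd45b, a stress-induced gene that has been linked to demethylation, read 6.78, 6.50 and 6.57 in XXsry males, against 7.06, 6.98 and 7.18 in XX females. It read 6.61, 6.62 and 6.65 in XY-sry males, against 6.86, 6.80 and 7.05 in XY- females. All male arrays lay below all female arrays, as for 1.21% of probe sets, and the averaged difference was -0.37 ± 0.060 (limma adjusted p = 0.00608). Gadd45b was the only gene of the pathway lists to pass within XX, at -0.46 (limma adjusted p = 0.0337).

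Of 8 genes that supply methyl groups or oxoglutarate 2 rose and 0 fell in males: Shmt2, the mitochondrial serine hydroxymethyltransferase (0.31 ± 0.084, limma adjusted p = 0.0485), and Mthfd1, a folate cycle enzyme (0.23 ± 0.062, limma adjusted p = 0.0497). Shmt2 also passed within XY- at 0.43 (limma adjusted p = 0.0457). Ahcy, which clears the by-product of methylation, differed by 0.21 ± 0.061 (limma adjusted p = 0.0614). The medians of the 4 lists were 0.097, 0.035, -0.024 and 0.047 in the order given. For the averaged complement effect 0 genes of the 4 lists passed in limma, and likewise in males, in females and for the interaction.

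Most germline genes that methylation is known to silence in body cells read below the array medians of 4.02 to 4.10. Of 15 listed genes with a probe set, 14 were below the filter, with means from 2.12 to 3.50, the highest being Mov10l1. Brdt, at 5.33, was the only one tested and differed by 0.0017 ± 0.125 between males and females (limma adjusted p = 0.997).

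Markers of cell types were read to check the tissue and to see what moved beside the members. Thymocyte markers were high (Cd8a at 11.4, Rag1 at 11.9), with 9 tested, 0 higher and 1 lower in males (Rag2, -0.19, limma adjusted p = 0.0222). Their mean log2 value ranged from 10.20 to 10.26 in XXsry males and from 10.25 to 10.34 in XX females, and from 10.24 to 10.26 in XY-sry males and from 10.21 to 10.32 in XY- females. Mature single-positive markers fell in 4 of 5 for the averaged effect, in 1 of 5 within XX and in 3 of 5 within XY-, while 6.56%, 0.742% and 8.64% of all probe sets passed in either direction. For these markers the mean log2 value ranged from 7.39 to 7.44 in XXsry males, against 7.71 to 7.76 in XX females, and from 7.25 to 7.36 in XY-sry males, against 7.63 to 7.93 in XY- females. B cell markers fell in 2 of 4 for the averaged effect, in 0 of 4 within XX and in 1 of 4 within XY- by limma, with Pax5 below the filter, and their mean ranged from 7.00 to 7.42 in XXsry males, against 7.43 to 7.56 in XX females, and from 6.96 to 7.02 in XY-sry males, against 7.31 to 7.46 in XY- females. Of the myeloid markers 0 of 5 passed in limma, but all 5 values were lower in males, with a median of -0.20 and a lowest of -1.40 (S100a9, a neutrophil protein, limma adjusted p = 0.0834). The myeloid mean log2 value ranged from 7.59 to 8.51 in XXsry males, against 8.43 to 8.96 in XX females, and from 7.85 to 8.54 in XY-sry males, against 8.51 to 9.26 in XY- females. Thymic epithelium passed in 0 of 7, and the red cell genes with a probe set were below the filter. The part of these cells in the results on the members was not tested.

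The labels were checked through Xist, Eif2s3y and Sry, and each array matched its group. A single array stood a little apart: XY- female replicate 2 had the highest median, 4.10, against 4.02 to 4.06 on the other arrays. It also had the lowest actin 3′ minus 5′ log2 difference, a sign of RNA quality, at 0.51. That difference ranged from 0.74 to 0.83 in XY-sry males, against 0.51 to 0.69 in XY- females, with no overlap. In the XX groups it ranged from 0.71 to 0.76 in XXsry males and from 0.66 to 0.77 in XX females. With it as a covariate the XY- differences were 0.39 ± 0.092 for Dnmt1 1422946_a_at and 0.44 ± 0.209 for Dnmt3b (limma adjusted p = 0.0842 and 0.281), and the averaged Dnmt1 difference was 0.28 ± 0.055 (limma adjusted p = 0.0246). Without XY- replicate 2 the XY- differences were 0.32 ± 0.073 for Dnmt1 and 0.40 ± 0.147 for Dnmt3b (limma adjusted p = 0.0308 and 0.117). Since the actin difference did not overlap between XY-sry and XY- arrays, it and the sex effect within XY- cannot be told apart by the covariate fit. Over all probe sets, calls within XY- were 54 with that covariate, against 1549 as reported. The part of RNA quality in these results was not tested further.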

How the data were processed

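Thymus RNA was measured on 12 one-colour Affymetrix arrays, 3 in each of 4 groups taken from the sample titles. The deposited log2 values, 45101 probe sets, are what the authors obtained by RMA (per the submitters' processing notes). No source used here gives its version, and no raw arrays were used. RMA evens out distributions between arrays, so a difference is relative to the whole array. After 64 controls were left out, 17925 probe sets averaging 5 or more on the log2 scale were fitted with 4 group means in limma 3.58.1 (R 4.3.3), and 7 contrasts were tested with Benjamini-Hochberg adjustment over all of them (threshold adjusted p under 0.05; 8 residual degrees of freedom). With 12 arrays precision is limited, and the median standard error came to 0.055 for an averaged effect, 0.077 within a complement or sex and 0.109 for the interaction.

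The members and lists were chosen with earlier results of these data known. All 9 members are named. A list gene is represented by its brightest probe set and named where it passed in any contrast, or, in a list where none passed, as 1 of its 2 brightest; Hells, Uhrf2, Ahcy and the genes of marker lists were named after their values were seen. The nearest genes are the 3 with the highest correlation. Correlations over arrays were tested by permutation in scipy 1.17.1, exact for 6 arrays and with 100000 resamples for 12, where 2e-05 is the smallest p they can give. Promoter sequences came from RefSeq, build GRCm38.p6. The fit was tested on simulated data first. Alternatives were other filters, scalings, variance models, array weights, 1 probe set per gene, a fit on the compared groups alone, a replicate block, an actin covariate and each array left out.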

Additional observations from a re-analysis of the deposited data

How the results depend on the processing

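No called member changed direction under any alternative run, so what moved was the number past the threshold. For the averaged sex effect that number, 1 as reported, was 0 with no filter on low values, 3 with an intensity trend and robust settings, 2 with the actin covariate and 5 with array weights, and leaving out 1 array gave 0 to 3. Within XY-, 2 as reported, it was 1 with no filter (Tet1 1429448_s_at, lower, while Dnmt1 and Dnmt3b were both lost, at adjusted p = 0.0664 and 0.0778), 5 with arrays centred on their medians, 1 with quantile normalization, 6 with array weights, 0 with only the groups compared and 0 with the actin covariate, and leaving out 1 array gave 0 to 2. In females, 0 as reported, it was 2 with array weights (Dnmt3b, higher in XX, and Mbd2, lower). Over all probe sets, calls for the averaged sex effect were 1176 of 17925 as reported, 692 of 45037 with no filter and 4361 with array weights. They were 1416 with the intensity trend, 865 with the actin covariate and 516 to 1745 without 1 array. Within XY- they were 1549 as reported, 1248 of 45037 with no filter, 1958 with median centring and 1514 with quantile normalization. They were 4245 with array weights, 72 with only the groups compared, 54 with the actin covariate and 553 to 1525 without 1 array. In females they were 14 as reported and 1477 with array weights. The averaged complement effect, the interaction, the sex effect within XX and the complement effect in males gave 0 member calls under every alternative. Over the single member probe sets 24 of 2490 alternative results lost the threshold and 21 gained it. Only a result past the threshold as reported could lose it. Dnmt1 1422946_a_at held in 18 of 21 alternatives for the averaged effect and in 15 of 22 within XY-. Dnmt3b 1449052_a_at held in 7 of 21 within XY-. Without the filter more probe sets are adjusted for, and Dnmt1 1422946_a_at had a limma adjusted p of 0.0522 (averaged). Its standard error was also larger, 0.053 against 0.048 as reported, at the same difference of 0.23. The causes of this and of the other shifts were not tested. With the replicate block the number of member calls within XY- was 1, against 1616 over all probe sets, since Dnmt3b had a limma adjusted p of 0.0684. The other 6 member counts were as reported. The numbers were not shown to pair the arrays: deviations of same-numbered arrays correlated between -0.083 and 0.306 over 18 pairs, above 0.1 in 8. Low signal limits the rest: Tet3 and 8 other member probe sets lay under the filter.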
